A study of Mus musculus with 6 samples.

Results

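The insulin-like growth factor (IGF) genes described here are the ligand gene Igf1, the receptor gene Igf1r and the 7 genes Igfbp1 to Igfbp7 that encode the IGF binding proteins. They were chosen by gene symbol and not by a cut on their values, though with earlier results of these data known. They are 9 of the 49671 genes in the deposited count table. All 9 were found, and all 9 passed the filter on low counts that left 17519 genes to test. The study sequenced total RNA from pancreata of C57BL/6J mouse embryos at 14.5 days post coitum. There were 3 libraries labelled 10 µM AMI-5 and 3 labelled control. AMI-5 is a synthetic compound that inhibits protein methyltransferases, chiefly those that modify arginine. Both groups share strain, tissue and stage, and the labels describe no other allele or agent and leave the culture and treatment steps to publications not used here. The series title places the comparison in the study of pancreas differentiation.

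IGF1 and IGF2 are secreted growth factors that bind the IGF1 receptor, a tyrosine kinase that signals through insulin receptor substrates to the PI3 kinase and AKT pathway and to the MAP kinases. IGF2 is also bound by the IGF2 receptor, which carries it to lysosomes. In extracellular fluid most IGF is held by binding proteins, which limit its access to the receptor, extend its lifetime or place it in the matrix, and from which proteases release it. In the embryo IGF signalling is known for setting growth of the body and its organs, and in the developing pancreas for effects on the growth of epithelium and mesenchyme.

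The AMI-5 libraries held 22894312 to 24805188 counts and the control libraries 12445425 to 13321899. Nothing in the labels says that replicates came from separate cultures or litters. The p-values set the difference between groups against the spread of these libraries within a group, and that spread may be technical. They need not hold for other embryos or cultures. The labels name the Ultra I version of the library kit for samples marked A and Ultra II for the rest. The control titles are marked A and the AMI-5 titles Am, so, read literally, kit and treatment cannot be told apart. Acinar markers identified the tissue as pancreas, with a summed level over 8 genes of 122600 to 152100 CPM, that is counts scaled to a common TMM-adjusted library size, in the AMI-5 libraries and 53990 to 74890 CPM in the controls. AMI-5 replicate 2 stood apart from the other libraries. Its 8 hepatoblast markers summed to 1480 CPM, against 20.9 and 42.7 CPM in AMI-5 replicates 1 and 3 and 42.3 to 55.0 CPM in the controls. In that library 19 tested genes were at least 5-fold above every other library, a count that was 0 in AMI-5 replicates 1 and 3, 3 in control replicate 1 and 0 in control replicates 2 and 3. Values without it are given beside the named genes whose call it changes and the lists whose counts it changes. In these bulk samples, fewer cells of a type and less RNA per cell cannot be told apart.

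Promoter windows are shown for 4 of the genes, picked for their results. No link between the windows and the levels was tested. Igf1 and Igfbp5 were higher in the AMI-5 libraries, Igfbp4 was lower, and Igfbp1 was high in 1 library. Each window is 250 bases before to 50 after the start that RefSeq gives in build GRCm38.p6, on the gene's own strand, 5′ to 3′. The windows are chr10:87860861-87861160 (+ strand, inside the annotated span of Igf1), chr1:72874816-72875115 (- strand), chr11:99040994-99041293 (+ strand) and chr11:7197537-7197836 (+ strand). Capitals mark matches, on either strand, of the FOXO-type site CAAAACA, the TATA box TATAAA and the hypoxia response core ACGTG or GCGTG.
Igf1: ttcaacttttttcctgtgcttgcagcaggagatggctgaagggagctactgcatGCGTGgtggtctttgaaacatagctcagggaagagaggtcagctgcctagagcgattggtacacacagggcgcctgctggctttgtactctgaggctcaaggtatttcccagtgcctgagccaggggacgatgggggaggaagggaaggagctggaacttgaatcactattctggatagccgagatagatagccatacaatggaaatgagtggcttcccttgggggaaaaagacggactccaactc
Igfbp5: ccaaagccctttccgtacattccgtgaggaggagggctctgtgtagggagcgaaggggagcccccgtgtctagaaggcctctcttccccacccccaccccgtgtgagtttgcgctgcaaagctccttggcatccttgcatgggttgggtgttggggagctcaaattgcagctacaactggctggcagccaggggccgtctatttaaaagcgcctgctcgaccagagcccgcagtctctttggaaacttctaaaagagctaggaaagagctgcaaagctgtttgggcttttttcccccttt
Igfbp4: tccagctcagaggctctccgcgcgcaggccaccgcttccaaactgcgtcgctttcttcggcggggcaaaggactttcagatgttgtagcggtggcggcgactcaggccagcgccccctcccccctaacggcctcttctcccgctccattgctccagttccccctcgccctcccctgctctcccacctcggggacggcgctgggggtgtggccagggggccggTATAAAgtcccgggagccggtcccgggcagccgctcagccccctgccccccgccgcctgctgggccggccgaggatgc
Igfbp1: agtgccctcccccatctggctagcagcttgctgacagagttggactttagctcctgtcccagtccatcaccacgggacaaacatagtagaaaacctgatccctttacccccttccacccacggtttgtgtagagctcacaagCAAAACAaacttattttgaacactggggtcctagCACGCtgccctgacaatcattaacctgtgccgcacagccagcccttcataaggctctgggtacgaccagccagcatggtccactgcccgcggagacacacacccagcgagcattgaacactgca
The Igfbp1 window held the FOXO-type site 108 bases before the start, a motif known from human IGFBP1 as part of the element through which insulin represses the gene, and a hypoxia core 74 bases before it. The Igfbp4 window held a TATA box 28 bases before the start. The Igf1 window held a single hypoxia core, 196 bases before the start, and the Igfbp5 window held none of these letters. All 9 genes matched the RefSeq table, with 10 windows because Igfbp2 has 2 starts there. The FOXO-type site was in 1 of the 10 windows and in 6.28% of all 32851 mouse windows, the TATA box in 2 of 10 and 13.6%, and the hypoxia core in 7 of 10 and 43.8%. The GC box GGGCGG was in 3 of 10 and 35.7%, and the ATF4-type site TGATGNAA in 0 of 10 and 3.97%, both read on either strand. The 2 forms of the hypoxia core can overlap each other. A match is a description of the letters and not a bound site.

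In the comparison of AMI-5 with control, the ligand gene Igf1 and the binding protein genes Igfbp5 and Igfbp6 were higher in the AMI-5 libraries, by 1.44, 1.52 and 1.44 times. Igfbp4 was lower, at 0.809 times the control level. Igf1r, Igfbp1, Igfbp2, Igfbp3 and Igfbp7 did not pass the threshold, an adjusted p under 0.05 in edgeR's quasi-likelihood test with Benjamini-Hochberg adjustment over all genes tested. In all, 4 of the 9 genes were called, 3 higher and 1 lower, where 54.1% of all tested genes were called, 27.5% higher and 26.6% lower. Over all genes this was 4820 higher and 4652 lower, and 3962 and 5883 with libraries scaled by their totals alone, under which the same 4 IGF genes were called. These 4 genes also had CPM values that did not overlap between the groups, as did 61.9% of all tested genes. The share called among the 9 was thus no larger than among genes at large. Each log2 fold change has AMI-5 on top.

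**Figure D1:**
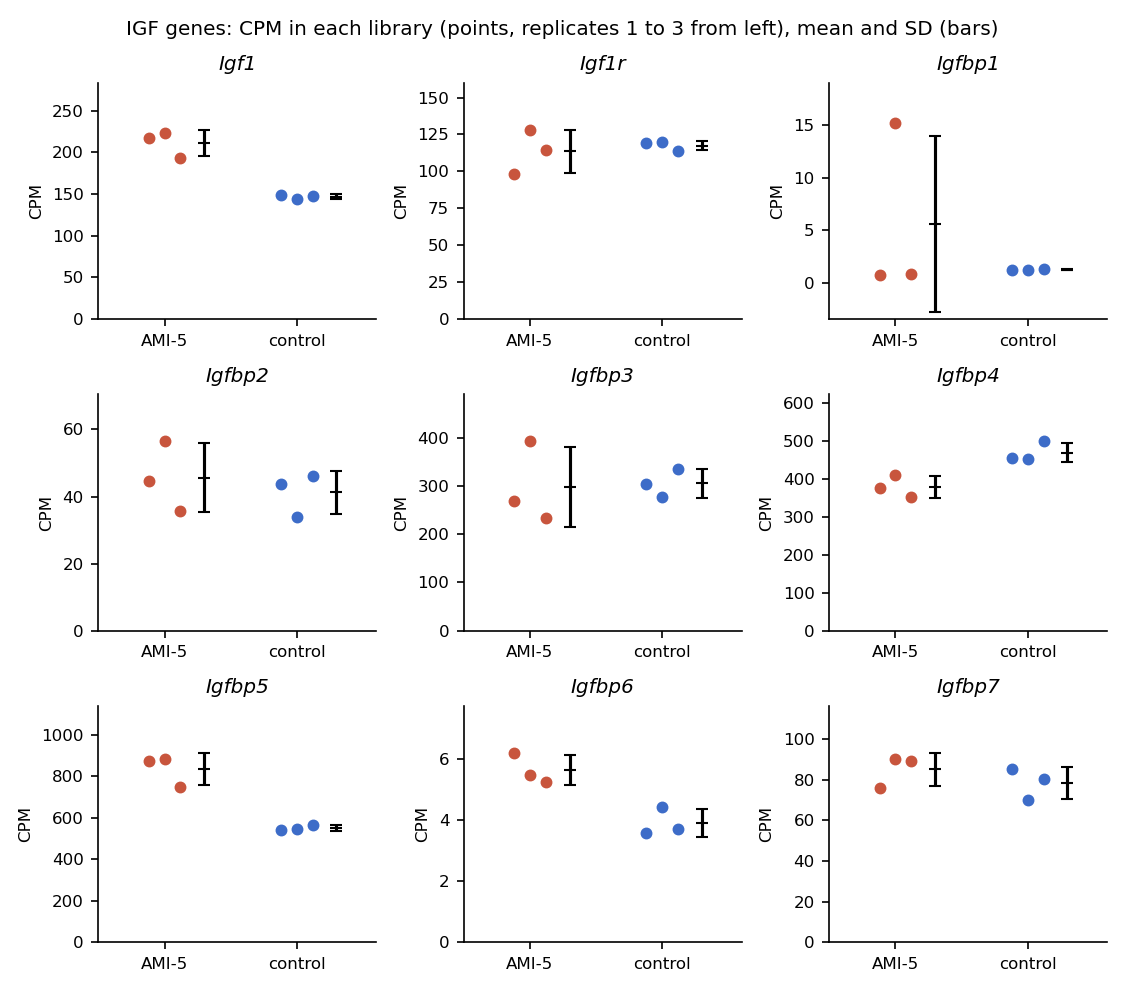
CPM of each IGF gene in every library, AMI-5 left of control, with replicates 1 to 3 from left to right in each group and the mean and SD of 3 libraries beside them. The groups lie apart for Igf1, Igfbp4, Igfbp5 and Igfbp6, and the Igfbp1 panel shows AMI-5 replicate 2 at 15.3 CPM with all other libraries between 0.718 and 1.29 CPM.

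Igf1, on chromosome 10 (chr10:87858265-87937042, + strand, mm10), encodes the secreted ligand. It measured 217, 223 and 193 CPM in AMI-5 replicates 1 to 3, against 149, 144 and 148 CPM in control replicates 1 to 3. Every AMI-5 library was above every control library, and the controls lay closer together (coefficient of variation 1.80%) than the AMI-5 libraries (7.53%). The log2 fold change was 0.52 ± 0.06 (SE; edgeR adjusted p = 2.65e-05). In trend-corrected fits, in which each library's trends of counts against GC content and gene length are removed, it was 0.25 over all genes and 0.24 over genes of unique sequence. It stayed past the threshold in all 16 other fits. The antisense gene Igf1os, which overlaps Igf1, had 1 to 3 counts in the AMI-5 libraries and 0 in the controls, so its reads are few beside the 1921 to 5008 counts of Igf1.

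Igf1r, the receptor gene (chr7:67952827-68233668, + strand), is the longest of the 9, with 16791 bases of merged exons. It measured 98.4, 128 and 114 CPM in the AMI-5 libraries and 119, 120 and 114 CPM in the controls. The AMI-5 libraries lay on both sides of the controls, with replicate 2 the highest of all 6 and replicate 1 the lowest. The log2 fold change was -0.05 ± 0.08 (SE; edgeR adjusted p = 0.645), with no call in any fit. The ratio of Igf1 to Igf1r counts needs no scaling between libraries, and it was 2.21, 1.75 and 1.69 in the AMI-5 libraries against 1.25, 1.20 and 1.30 in the controls. Every AMI-5 value was above every control value, and the exact two-sided permutation test gave p = 0.1, the smallest that 3 against 3 allows. That difference, 0.57 on the log2 scale, was 0.16 in the trend-corrected fit over all genes and 0.21 in the one over genes of unique sequence.

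Igfbp5, on chromosome 1 (chr1:72857932-72874884, - strand), encodes a binding protein that attaches to extracellular matrix, and had the highest CPM of the 9. It measured 875, 881 and 745 CPM in the AMI-5 libraries against 541, 543 and 564 CPM in the controls. All AMI-5 libraries were above all controls, with the lowest AMI-5 library, replicate 3, still well above the highest control. The log2 fold change was 0.60 ± 0.07 (SE; edgeR adjusted p = 1.78e-05). Its range over the 16 other fits was 0.51 to 0.77, past the threshold in each.

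Igfbp4, on chromosome 11 (chr11:99041244-99054392, + strand), encodes a binding protein that holds IGF away from its receptor until the protease PAPP-A cleaves it. It measured 375, 411 and 353 CPM in the AMI-5 libraries against 457, 453 and 499 CPM in the controls. All AMI-5 libraries were below all controls, but the gap between the highest AMI-5 library and the lowest control was smaller than the spread of either group. The log2 fold change was -0.31 ± 0.07 (SE; edgeR adjusted p = 0.00239). This call ended in the trend-corrected fits, at 0.0056 over all genes (adjusted p = 0.949) and -0.08 over genes of unique sequence (adjusted p = 0.330).

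The fold changes of Igfbp5 and Igfbp4 lay apart in every fit. The ratio of Igfbp5 to Igfbp4 counts was 2.33, 2.14 and 2.11 in the AMI-5 libraries against 1.18, 1.20 and 1.13 in the controls. The groups were far apart relative to their spread, with means of 2.20 ± 0.119 in the AMI-5 libraries and 1.17 ± 0.0358 in the controls (SD, n = 3 each), and the exact two-sided permutation p was 0.1, the smallest possible. The log2 difference between the genes was 0.91, and 0.76 and 0.79 in the trend-corrected fits. Of 4 such count ratios examined, Igfbp3 to Igfbp4 gave an exact p of 0.3 and Igfbp5 to Igfbp2 an exact p of 0.2. Adjusted over the 4 ratios, the p of 0.1 became 0.2 for Igfbp5 to Igfbp4 and for Igf1 to Igf1r. Igfbp3 to Igfbp4 was 0.717, 0.953 and 0.662 in the AMI-5 libraries and 0.665, 0.611 and 0.672 in the controls, so the groups overlapped.

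Igfbp6 (chr15:102144362-102149511, + strand) encodes a binding protein with a preference for IGF2 over IGF1. It was a low gene, with 138, 123 and 124 counts in the AMI-5 libraries and 46, 61 and 49 in the controls. These are 6.19, 5.48 and 5.24 CPM in the AMI-5 libraries against 3.57, 4.45 and 3.71 CPM in the controls, and all AMI-5 values lay above all control values. Igfbp6 thus had a log2 fold change of 0.53 ± 0.16 (SE; edgeR adjusted p = 0.0172). The call ended without control replicate 1 (0.46, adjusted p = 0.0588) and without AMI-5 replicate 1 (0.46, adjusted p = 0.0608). It also ended with trends removed over all genes (-0.08, adjusted p = 0.722). Over genes of unique sequence the value was 0.82 and was called (adjusted p = 0.00319), so the call depended on the genes that set the trend.

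Igfbp3 (chr11:7206086-7213923, - strand) encodes the main IGF carrier of blood, where it joins IGF and the acid-labile subunit. It measured 269, 392 and 234 CPM in the AMI-5 libraries and 304, 277 and 335 CPM in the controls. AMI-5 replicate 2 was the highest of all libraries and the other AMI-5 libraries were the lowest of all. On the log2 scale the difference was -0.03 ± 0.22 (SE; edgeR adjusted p = 0.913). Without AMI-5 replicate 2 it was -0.26 and was called (adjusted p = 0.0370). In that fit 3 of the 9 genes were higher and 2 lower, where 49.7% of tested genes were called.

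Igfbp2, which neighbours Igfbp5 tail to tail at a distance of 5457 bases (chr1:72824503-72852474, + strand), encodes a binding protein abundant in fetal tissues. It measured 44.6, 56.4 and 35.8 CPM in the AMI-5 libraries and 43.9, 34.0 and 46.1 CPM in the controls. The groups overlapped, and the log2 fold change was 0.14 ± 0.20 (SE; edgeR adjusted p = 0.589). It was -0.014 without AMI-5 replicate 2, and 0.61 and 0.51 in the trend-corrected fits over all genes and over genes of unique sequence, with no call in any fit. Igfbp7 (chr5:77349240-77408041, - strand) encodes a matrix-associated protein of vessels that binds IGF with low affinity. It measured 75.9, 90.1 and 89.3 CPM in the AMI-5 libraries and 85.2, 70.0 and 80.3 CPM in the controls, again overlapping. Its log2 fold change was 0.12 ± 0.09 (SE; edgeR adjusted p = 0.282). With trends removed Igfbp7 was called lower over all genes (-0.44, adjusted p = 0.00331) and higher over genes of unique sequence (0.36, adjusted p = 0.00971). Igfbp7 overlaps Polr2b on the other strand, whose log2 fold change was -0.03 (adjusted p = 0.667). Whether the counting used strand is not stated in the sources used here.

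**Figure D2:**
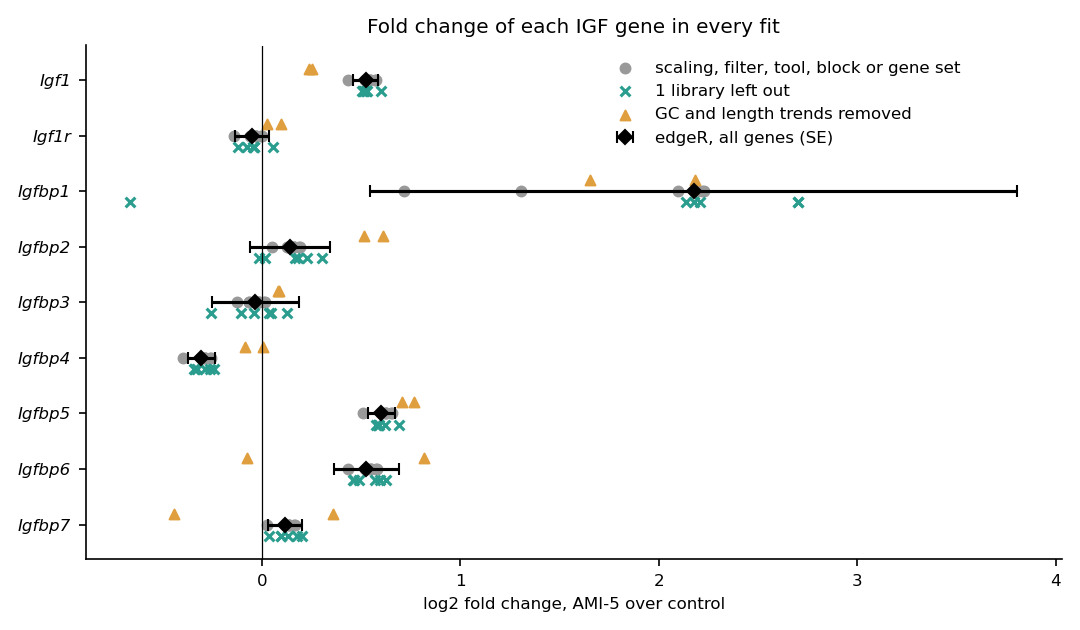
Log2 fold change of AMI-5 over control for each IGF gene, with the edgeR value and its SE in black and every other fit as a mark on the same row. Igf1 and Igfbp5 stay above 0 in every fit. Igf1r, Igfbp3, Igfbp4, Igfbp6 and Igfbp7 change sign in the trend-corrected fit over all genes, and Igfbp1 and Igfbp2 without AMI-5 replicate 2. In all, Igfbp3 changes sign in 7 of the 16 other fits and Igf1r in 4.

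Igfbp1, on chromosome 11 (chr11:7197782-7202546, + strand), lies 3539 bases from Igfbp3, tail to tail. It encodes a binding protein made chiefly by liver and known to be repressed by insulin. It had 16, 343 and 19 counts in AMI-5 replicates 1 to 3 and 15, 17 and 17 in control replicates 1 to 3. In CPM this was 0.718, 15.3 and 0.803 with AMI-5 and 1.16, 1.24 and 1.29 in controls. AMI-5 replicate 2 was alone at the high level, 11.9 times the highest of the other 5 libraries, and the other AMI-5 libraries were below all controls. With all libraries the log2 fold change was 2.18 ± 1.63 (SE; edgeR adjusted p = 0.330), and -0.66 without AMI-5 replicate 2 (adjusted p = 0.112).

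The library with the high Igfbp1 level was the one with high hepatoblast markers. Alb, the gene of serum albumin, measured 7.18, 596 and 17.6 CPM in AMI-5 replicates 1 to 3 and 12.4, 10.2 and 10.5 CPM in the controls. Afp, the gene of alpha-fetoprotein, measured 6.15, 619 and 15.9 CPM in the AMI-5 libraries and 29.8, 24.8 and 23.0 CPM in the controls. All 8 markers of that list were highest in AMI-5 replicate 2, by 3.85 to 56.3 times the highest other library, and 0 of the 7 that were tested were called between the groups. Without that library 5 were tested, with 0 called higher and 1 called lower. None of the 8 was at 0 in a whole group. The part of this in the Igfbp1 level was not tested. Replicate 2 was also the highest of the 3 AMI-5 libraries for 8 of the 9 IGF genes and the highest of all 6 libraries for 7. Outside Igfbp1 its excess over the mean of the other AMI-5 libraries was modest, reaching 1.56 times for Igfbp3.

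**Figure D3:**
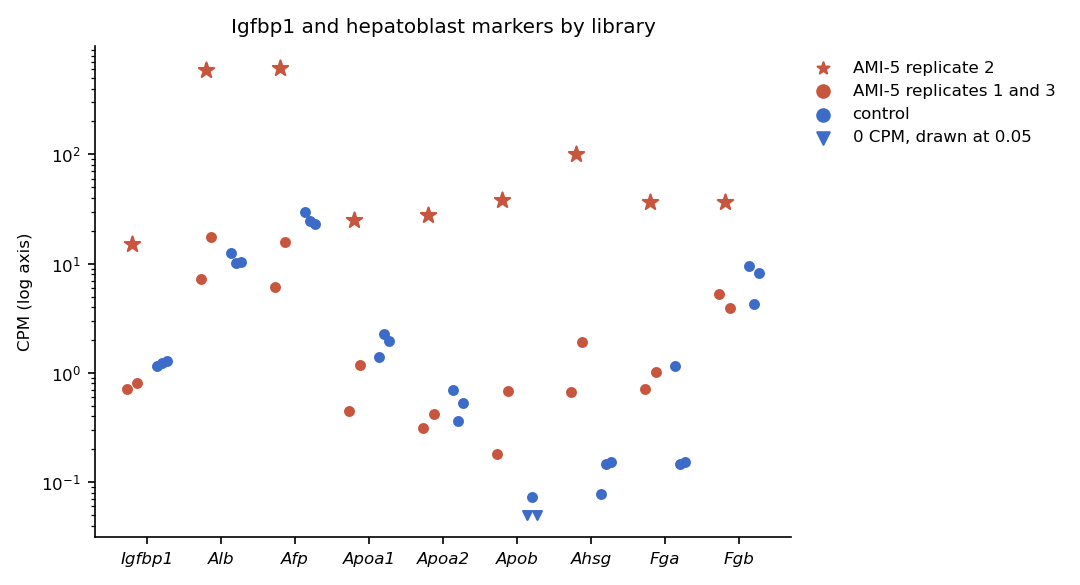
CPM of Igfbp1 and 8 hepatoblast markers in each library on a log axis, AMI-5 left of control for each gene. The star is AMI-5 replicate 2, which lies above every other library for all 9 genes.

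Levels of different genes were compared per length, as counts divided by merged exon length and scaled to the same total in every library (TPM). These TPM values serve to compare genes within a library, since acinar transcripts take an unequal share of that total in the groups. In the AMI-5 libraries the order of mean levels was Igfbp5 (290 TPM), Igfbp3 (199.7), Igfbp4 (179.5), Igfbp7 (147), Igfbp2 (51.7), Igf1 (44.5), Igf1r (14.1), Igfbp6 (10.6) and Igfbp1 (7.91). Among these, the neighbours Igfbp5 and Igfbp3, Igfbp3 and Igfbp4, Igfbp2 and Igf1, and Igfbp6 and Igfbp1 overlapped in their ranges over 3 libraries. Within each AMI-5 library Igfbp5 was above Igfbp3, and each of the other pairs changed order in 1 library. In the control libraries the order was Igfbp4 (291 TPM), Igfbp3 (267), Igfbp5 (250.1), Igfbp7 (177), Igfbp2 (61.2), Igf1 (40.5), Igf1r (19.1), Igfbp6 (9.61) and Igfbp1 (2.21). There only Igfbp4 and Igfbp3, and Igfbp3 and Igfbp5, overlapped among neighbours. With merged exon length, Igfbp4 was above Igfbp3 within each control library, and Igfbp3 was below Igfbp5 in 1. From Igfbp7 down, the orders were the same, while Igfbp5 stood at place 1 in the AMI-5 libraries and place 3 in the controls. Igfbp1 owed its mean in the AMI-5 group to replicate 2, at 21.7 TPM, where replicates 1 and 3 were at 0.962 and 1.08 TPM.

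Within the summed TPM of the 7 binding protein genes, Igfbp5 made up 35.6%, 30.2% and 32.9% in the AMI-5 libraries against 23.2%, 24.9% and 22.9% in the controls. Igfbp4 made up 20.8%, 19.2% and 21.2% in the AMI-5 libraries against 26.6%, 28.3% and 27.6% in the controls. For each of these genes the groups did not overlap, Igfbp5 averaging 32.9 ± 2.66% with AMI-5 and 23.7 ± 1.10% in controls, and Igfbp4 20.4 ± 1.05% with AMI-5 and 27.5 ± 0.848% in controls (SD, n = 3 each). The exact two-sided permutation p was 0.1 for each, the smallest possible, and 0.35 when adjusted over the 7 shares. Igfbp3 averaged 22.2 ± 3.19% with AMI-5 and 25.2 ± 0.911% in controls (exact p = 0.3). Igfbp7 averaged 16.8 ± 2.45% with AMI-5 and 16.8 ± 1.19% in controls, and Igfbp2 averaged 5.78 ± 0.586% with AMI-5 and 5.76 ± 0.588% in controls, both with an exact p of 1. Igfbp6 and Igfbp1 stayed at or under 2.07% in every library.

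**Figure D4:**
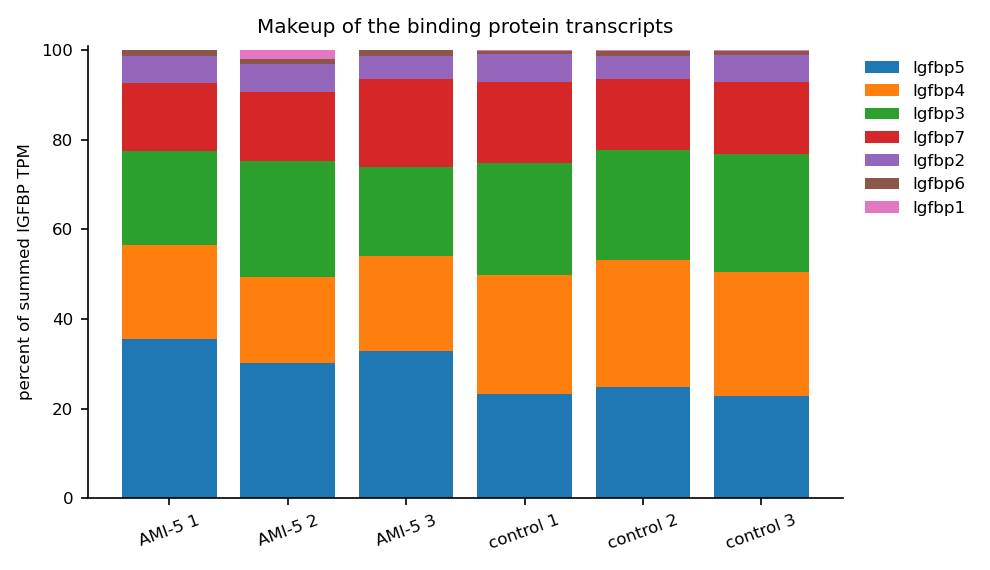
Percent of the summed TPM of the 7 IGFBP genes held by each gene, 1 stacked bar a library, AMI-5 libraries left of control libraries. The Igfbp5 segment spans 30.2% to 35.6% in the AMI-5 libraries and 22.9% to 24.9% in the controls, and the Igfbp4 segment 19.2% to 21.2% in the AMI-5 libraries and 26.6% to 28.3% in the controls.

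The genes with the most similar pattern over the 6 libraries were found as the smallest root mean square difference of centred log2 CPM among 11724 genes. For Igf1 these were Hspa9 (0.03), a mitochondrial chaperone gene, Dnajb4 (0.032), a co-chaperone gene, and Smim15 (0.036). For Igfbp5 they were Hspa9 (0.043), Igf1 itself (0.047) and Ugdh (0.053), which encodes an enzyme of glycosaminoglycan synthesis. For Igf1r they were Bbx (0.023), Ap5b1 (0.026) and Cnot1 (0.032), a subunit of a deadenylase complex. Igf1 and Igfbp5 were thus near each other in pattern, as a description over 6 libraries.

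Other genes of the pathway were taken from 6 lists with 69 genes, of which 67 were tested. Of these, 17 passed the test as higher and 26 as lower, where 27.5% of all tested genes were higher and 26.6% lower. Those shares also stand beside the counts of the pathway, marker and stress lists below. The median of the 67 genes was -0.11 on the log2 scale, beside -0.0013 for all genes tested. The split between directions moved with the scaling, to 23 higher and 23 lower with upper-quartile scaling and 13 higher and 32 lower with libraries scaled by their totals. In the trend-corrected fit over all genes it was 24 higher and 11 lower. In the one over genes of unique sequence it was 14 higher and 9 lower of 51. Without AMI-5 replicate 2 it was 18 higher and 25 lower. Of all tested genes, 52.1%, 38.6% and 49.7% were called in these fits, in that order.

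Of the other ligands and receptors, Igf2, the main IGF ligand gene of the embryo and an imprinted gene, was the 1 called of 4. It measured 2852, 3160 and 2892 CPM in the AMI-5 libraries against 4183, 4143 and 4679 CPM in the controls, with a log2 fold change of -0.55 (edgeR adjusted p = 3.91e-05) that was -0.12 and not called with trends removed over all genes (adjusted p = 0.147). Igf2 shares exonic sequence with another annotated gene, so its counts are uncertain. Igf2 exceeded Igf1 per length by 22.7, 24.5 and 25.9 times in the AMI-5 libraries and by 48.6, 49.8 and 54.8 times in the controls. Igf2r, the clearance receptor gene, had a log2 fold change of -0.23 (adjusted p = 0.192), and -0.33 and a call without AMI-5 replicate 2 (adjusted p = 0.0183).

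Of 12 tested genes that govern IGF release and availability, 7 were higher and 1 lower, or 7 and 0 without AMI-5 replicate 2. Stc2 encodes an inhibitor of PAPP-A and measured 94.3, 101.5 and 78.7 CPM in the AMI-5 libraries against 35.7, 40.4 and 31.4 CPM in the controls. Its log2 fold change was 1.35 (edgeR adjusted p = 1.21e-05), the highest of the 67. Pappa, the gene of the protease PAPP-A that cleaves IGFBP4, measured 42.3, 52.7 and 37.2 CPM in the AMI-5 libraries against 24.0, 24.4 and 27.6 CPM in the controls. Its log2 fold change was 0.80 (adjusted p = 0.000466), so the genes of the protease and of its inhibitor were both higher, in 3 of 3 AMI-5 libraries above every control. The growth hormone receptor gene Ghr (0.44) and its kinase gene Jak2 (0.44) were also called higher, while Adam12, a metalloprotease gene, was at 0.02 (adjusted p = 0.916). These calls for Stc2, Pappa, Ghr and Jak2 held in all 16 other fits.

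Of 7 tested IGFBP-related genes, 3 were higher and 2 lower. Ccn4 (0.76), Ccn2 (0.54) and Esm1 (0.40) were called higher, Ccn4 and Ccn2 encoding matricellular proteins and Esm1 an endothelial proteoglycan. Igfbpl1 (-0.73) and Ccn3 (-0.72) were called lower, and Ccn1 was at 0.26 and not called. The Esm1 call ended with trends removed over all genes (-0.04). The Ccn3 call ended in 5 of 16 other fits. Among the 3 genes of IGF2 mRNA binding proteins, which bind Igf2 and other transcripts, Igf2bp1 was lower (-0.65, adjusted p = 0.000105) and Igf2bp2 (-0.14) and Igf2bp3 (0.14) were not called.

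Of 14 genes for adaptors and phosphatases at the receptor, 1 was higher and 10 lower, with a median of -0.31. Without AMI-5 replicate 2 the counts were 1 and 9. Grb10, an imprinted gene whose product restrains insulin and IGF receptor signalling, measured 858, 885 and 857 CPM in the AMI-5 libraries against 1357, 1266 and 1395 CPM in the controls. Its log2 fold change was -0.63 (edgeR adjusted p = 2.42e-06), and it was called in all 16 other fits. Irs2 (-0.58), an insulin receptor substrate gene, Sh2b1 (-0.50), an adaptor gene, and Ptpn11 (-0.35), the gene of the phosphatase SHP2, were also lower. With trends removed over all genes, 2 of 14 were higher and 5 lower (over genes of unique sequence 0 and 4 of 10), and Irs2 and Sh2b1 lost their calls, at -0.09 and 0.09.

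Of 27 genes of the PI3 kinase, AKT, FOXO and mTORC1 branch, 6 were higher and 11 lower, or 7 and 11 without AMI-5 replicate 2. Deptor (0.72), whose product inhibits mTOR, and Eif4ebp1 (0.57), whose product restrains cap-dependent translation, were higher. Pik3r3 (-0.78) and Pik3r2 (-0.47), genes of PI3 kinase regulatory subunits, Inppl1 (-0.35), a lipid phosphatase gene, and Akt1 (-0.21) were lower, the last with no call without AMI-5 replicate 2 (-0.17, adjusted p = 0.067). With trends removed over all genes this list had 11 higher and 2 lower, against 4 higher and 1 lower of 20 over genes of unique sequence. In the fit over all genes Pik3r2, Akt1 and Inppl1 changed sign and were called higher, at 0.28, 0.38 and 0.17. Deptor, Eif4ebp1 and Pik3r3 kept their calls and signs there, at 0.66, 0.37 and -0.89. Over genes of unique sequence Akt1 was also called higher (0.155, edgeR adjusted p = 0.036), while Pik3r2 was not called (-0.04).

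**Figure D5:**
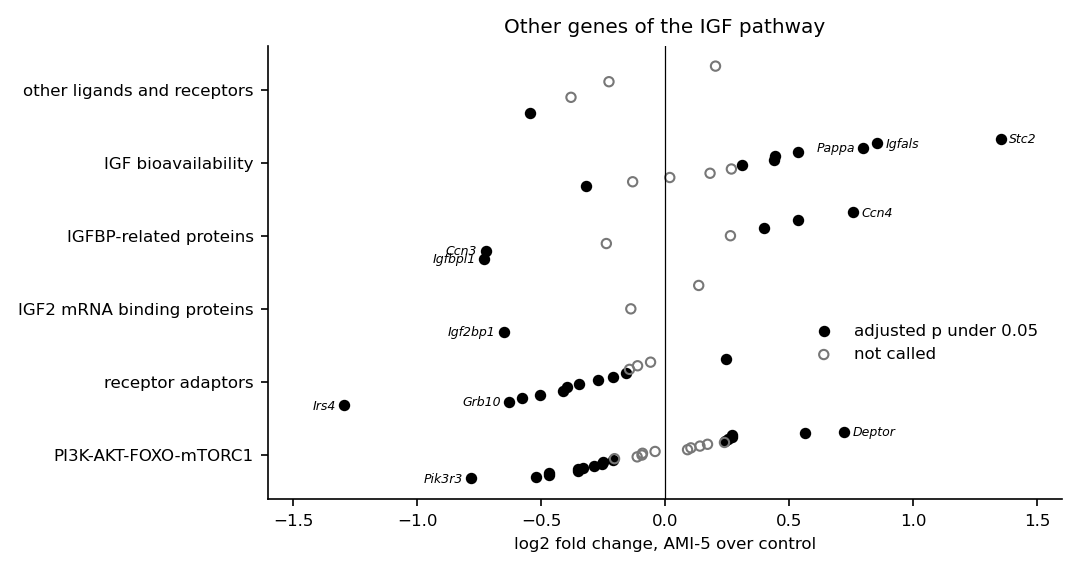
Log2 fold change of AMI-5 over control for 67 other IGF pathway genes in 6 lists, filled where the edgeR adjusted p is under 0.05. Among receptor adaptors 10 of 14 are called lower, and among genes of IGF bioavailability 7 of 12 are called higher, with Stc2 farthest to the right. Of all tested genes, 26.6% are called lower and 27.5% higher.

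Markers of cell types that make IGF genes were read beside these results, and no list had a marker at 0 in a whole group. Mesenchymal markers summed to 9427 to 10840 CPM in the AMI-5 libraries and 9733 to 10200 CPM in the controls, with 4 higher and 3 lower of 10, or 3 and 3 without AMI-5 replicate 2. Among those higher were Dcn (0.83) and Postn (0.71), matrix protein genes, and Col3a1 (0.19), the mesenchymal marker of highest CPM. The Col3a1 call ended without that library (0.16, edgeR adjusted p = 0.125). Barx1 (-0.58), Col1a1 (-0.27) and Col1a2 (-0.2) were the ones lower. Smooth muscle and pericyte markers summed to 269 to 284 CPM with AMI-5 and 315 to 347 CPM in controls, with 0 higher and 4 lower of 6, Acta2 (-0.49) and Des (-0.32) among them, the Des call ending in both trend-corrected fits. Rgs5, the highest of the 6 by CPM, was at 0.0038 and not called, but was called lower in both trend-corrected fits (-0.29 and -0.21). Leukocyte markers summed to 389.9 to 469 CPM with AMI-5 and 297.5 to 318 CPM in controls, with 5 higher and 0 lower of 9, the macrophage genes Mrc1 (1.34) and Adgre1 (0.84) among them. C1qa, the leukocyte marker of highest CPM, was at 0.10 and not called (edgeR adjusted p = 0.281). With trends removed C1qa was called lower over all genes (-0.76) and higher over genes of unique sequence (0.35). Endothelial markers summed to 410.2 to 579.6 CPM with AMI-5 and 498 to 617.5 CPM in controls, with 0 higher and 3 lower of 9, or 5 lower without AMI-5 replicate 2. Erythroid markers summed to 78.2 to 235 CPM with AMI-5 and 9.26 to 17.2 CPM in controls, with 5 higher and 0 lower of 6 tested, mostly globin genes that share sequence with near-identical copies. That count was 1 without control replicate 1, 2 without control replicate 2 and 3 without control replicate 3. Acinar markers had 4 higher and 0 lower of 8, or 6 higher without AMI-5 replicate 2. Duct and trunk markers had 1 higher and 3 lower of 7 and endocrine markers 1 higher and 3 lower of 8, each with 2 lower without that library. Mesothelial markers had 1 higher and 0 lower of 6, the 1 being Msln (0.59), whose call ended without AMI-5 replicate 2 (adjusted p = 0.0843) and in 8 of 16 other fits in all. Wt1, the mesothelial marker of highest CPM, was at 0.08 and not called, but was called higher with trends removed over all genes (0.41). Neural and glial markers had 2 higher and 2 lower of 6. In the trend-corrected fit over all genes the counts were 7 higher and 0 lower for mesenchyme, 5 and 3 for leukocytes, 3 and 2 for acinar cells, 0 and 4 for endocrine cells and 2 and 0 for erythroid cells. In the one over genes of unique sequence they were 5 and 0 for mesenchyme, 7 and 0 for leukocytes, 5 and 0 for acinar cells and 1 and 1 for endocrine cells, and the 1 erythroid marker tested there was not called. For ducts and trunk the counts were 1 and 2 of 7 over all genes and 2 and 0 of 5 over genes of unique sequence. The part of these cell types in the IGF results was not tested.

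Genes of 2 stress responses that are known to act on IGF genes also differed. Hypoxia response genes summed to 1094 to 1515 CPM in the AMI-5 libraries and 570.1 to 659.5 CPM in the controls, with 12 higher and 0 lower of 13, P4ha1 (1.41) and Pdk1 (0.99) among them. Vegfa, the highest of the 13 by CPM, was at 0.32 and not called (edgeR adjusted p = 0.0645), but was called in 10 of 16 other fits. Integrated stress response genes summed to 993 to 1146 CPM in the AMI-5 libraries and 709 to 840 CPM in the controls, with 8 higher and 1 lower of 11. Trib3 (3.16) and Ddit3 (1.51) were among those higher. Atf4 (0.23), the highest of the 11 by CPM, was also called higher, a call that ended in 4 of 16 other fits. Within the AMI-5 group the hypoxia sum was 1228, 1515 and 1094 CPM in replicates 1 to 3 and the integrated stress response sum 1146, 1083 and 993 CPM. The part of these responses in the levels of the IGF genes was not tested.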

How the data were processed

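RNA of 6 embryonic mouse pancreas samples was sequenced, 3 with AMI-5 and 3 controls. The deposited values are raw counts of reads per gene, not normalized, with gene lengths in bases. Per the submitters' processing notes, the tools were featureCounts 1.6.2, GSNAP 2018-05-30 and bcl2fastq 2.19.1, on build mm10. Ensembl release 87 is in the name of the deposited table. The sources used here do not give the strand setting or the handling of reads with several matches. The 92 spike-in sequences held 1 read in all and were left out. Symbols, positions, GC content and shared 50-mers came from GENCODE M21 on the same build, whose positions overlapped for 99.98% of shared identifiers. Genes of unique sequence are the 10914 tested protein-coding genes with under 5% of exonic 50-mers in another gene.

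Genes were tested with edgeR 4.0.16 in R 4.3.3 (TMM, filterByExpr, robust quasi-likelihood F test, two-sided, Benjamini-Hochberg over 17519 genes). The common biological coefficient of variation was 9.65%. The smaller control libraries limit precision for low genes. Alternatives were other scalings, no filter, DESeq2 1.42.0, limma 3.58.1 voom, a replicate block, genes of unique sequence, GC and length trends removed per library with mgcv 1.9-3, and each library left out. Single values were compared by exact permutation over libraries.

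The IGF genes, lists and alternatives were chosen with earlier results of these data known. All 9 IGF genes are named. Pathway lists each give up to 4 called genes of smallest p and up to 2 of highest mean CPM. For marker and stress lists the rule was up to 2 and 1, but it was not followed for every list. The endothelial, erythroid, acinar, duct and trunk, endocrine, and neural and glial lists name no gene. For Igf1, Igf1r and the binding protein gene highest per length, the 3 protein-coding genes of nearest pattern with a mean of at least 5 CPM are named. Alb, Barx1, Col1a1 and Col1a2 were named after their values were seen. Replicate pairs differed beyond sampling noise (chi-square over degrees of freedom 6.71 to 16.1).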

Additional observations from a re-analysis of the deposited data

How the results depend on the processing

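Igf1 (0.24 to 0.60) and Igfbp5 (0.51 to 0.77) kept direction and call under all 16 other fits, which were other scalings, no filter, other tools, the replicate block, other gene sets, trends removed and each library left out. With the replicate block the same 4 IGF genes were called, with 4704 genes higher and 4482 lower in all. Deviations of same-numbered libraries correlated at -0.058, -0.038 and -0.048, and those of differently numbered libraries at -0.017 to 0.063. The labels do not say what equal numbers share, and values this near 0 cannot show whether the libraries were paired. Igfbp3 turned to 0.012 with upper-quartile scaling. Among genes of unique sequence Igf1r was at 0.0015 and Igfbp3 at 0.018, with 2495 genes higher and 2734 lower overall and 14 pathway genes lower, where fewer genes were tested. In the trend-corrected fit over all genes, Igf1r was at 0.096, Igfbp3 at 0.087, Igfbp4 at 0.0056, Igfbp6 at -0.075 and Igfbp7 at -0.44, and 11 pathway genes were lower. With trends removed over genes of unique sequence, Igf1r was at 0.027, Igfbp3 at 0.082, Igfbp4 at -0.083 and Igfbp7 at 0.36, with 1957 genes higher, 2259 lower and 9 pathway genes lower. The cause was not tested for these. Leaving out each library gave ranges of -0.12 to 0.053 for Igf1r, -0.66 to 2.70 for Igfbp1, -0.014 to 0.31 for Igfbp2, -0.26 to 0.13 for Igfbp3 and 0.46 to 0.62 for Igfbp6. In the AMI-5 group the place by level per length then ran from 8 to 9 for Igfbp1 and Igfbp6 and from 2 to 3 for Igfbp3 and Igfbp4. With the longest transcript as length, Igfbp3 was at place 1 and Igfbp4 at place 2 in controls. On counts without length, the share in AMI-5 minus control was 12.6 points for Igfbp5, -9.35 for Igfbp4 and 0.0724 for Igfbp6. Without a filter the call count was 10865 of 30813 genes. DESeq2 gave no adjusted p for Igfbp1. Of 416 counts over marker and stress lists under alternatives, 360 stayed within 1.5 times and 56 did not. Depth limits Igfbp1 and Igfbp6 most, with 15 to 17 and 46 to 61 counts in the controls.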
